A study of Mus musculus with 4 samples.

Results

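The kinesin motor genes were taken as all protein-coding transcripts with the gene symbol *Kif*, a number and at most a letter and a digit. This rule gave 60 transcripts of 32 genes, out of 34200 transcripts of 21945 genes in the table. The rule does not use any measured value. It leaves out the superfamily members with other symbols, such as *Kifc1* and *Cenpe*, which are described with the partner genes. The annotation (GENCODE M21) lists 38 protein-coding genes with such symbols, and *Kif2b*, *Kif6*, *Kif12*, *Kif17*, *Kif19a* and *Kif26b* had no row in the table.

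The data came from NIH/3T3 cells, an immortalised line of mouse fibroblasts, in which *Setd2* was knocked down. SETD2 is the histone methyltransferase that places the third methyl group on lysine 36 of histone H3 (H3K36me3). Knockdown (KD) cells were co-transfected with *Setd2* siRNAs and control (WT) cells with Scrambled siRNA, both with the same lipid reagent and 10 nM siRNA. The cells were lysed 48 h later, and strand-specific mRNA libraries of 2 KD and 2 WT samples were sequenced. The labels do not say whether they came from independent cultures, so that p-values measure the spread between these samples, which may be technical.

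Kinesins are motor proteins that use ATP to walk along microtubules or to take their ends apart. Mitotic kinesins build the spindle, move chromosomes and organise the midzone at which the daughter cells separate, and their mRNAs are known to accumulate late in the cell cycle. Transport kinesins carry vesicles, mitochondria, ciliary proteins and RNA through cells that may not divide at all. A dividing fibroblast line needs both kinds.

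The values are normalised estimated counts, that is, reads assigned to each transcript and scaled for library size. The analysis used no value of a single library, and the depth of the libraries is therefore unknown. For each transcript, the columns used hold the mean over the 4 libraries on a natural log scale, the variance over the 4 libraries, and the variance within the groups. The variance that is not within the groups lies between them, and it gives the size of the difference between KD and WT but not its direction. All differences are therefore given as sizes on the log2 scale, and the means of both groups are given without saying which belongs to KD. Means over the libraries and group means are means of logs turned back into counts. The mean over all libraries is therefore not the arithmetic mean of the group means. Each size was tested with a moderated F test (limma) and Benjamini-Hochberg adjustment over all 34200 transcripts. An adjusted p under 0.05 is called a difference.

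*Setd2* itself (ENSMUST00000153838.7, GRCm38 chr9:110532597-110618633, plus strand) had group means of 3680.4 and 923 normalised estimated counts. The size of the difference was 1.99 (SE 0.08, 95% confidence interval 1.78 to 2.21, adjusted p = 0.0144 by the moderated F test), a 3.98-fold distance. The labels of the groups cannot be checked from it, since the direction is not given by the columns used. All 8 fibroblast markers on a fixed list were in the table, at 3083 to 323250 counts with *Fn1* the highest. Of the epithelial markers, 2 of 4 were in the table at 22.5 to 113 counts, and the 3 haematopoietic markers lay at 30.3 to 351, the 2 endothelial markers at 29.4 to 30.9, and 2 of 4 neuronal markers at 3.03 to 54.3. Over the whole series, 3312 transcripts (9.68%) were called different between KD and WT.

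Most mitotic kinesin genes shared a short promoter sequence that few transport kinesin genes had. The cell cycle genes homology region (CHR), with the letters TTTGAA, is known as a promoter element of genes that are transcribed late in the cell cycle. It was searched on both strands in RefSeq promoters (GRCm38.p6) of 300 bases, 250 before the start site and 50 from the start site on. It was present in 9 of 10 mitotic kinesin genes with a promoter sequence, 1 of 9 transport kinesin genes and 1 of 7 other kinesin genes. Of all 32851 promoters of this length, 17.9% had it. A kinesin gene was counted for a motif if any of its promoters had it, whereas the background counts each promoter singly. Within 30 bases of the start site, 7 of 10 mitotic and 0 of 9 transport kinesin genes had the motif, against 3.19% of all promoters. The RefSeq start sites can differ from those of the tested transcripts. *Kif4-201* starts at chrX:100625737, upstream of the window shown for *Kif4*, which therefore lies inside the span of that transcript. The promoter windows of these 7 genes are shown, from 70 bases before the start site to 29 after it, each 5′ to 3′ on the strand of the gene. Capitals mark the CHR (TTTGAA, or TTCAAA where it lies on the opposite strand) and the CCAAT box (CCAAT or ATTGG), the letters bound by the factor NF-Y.
Kif23, chr9:61946770-61946869, minus strand: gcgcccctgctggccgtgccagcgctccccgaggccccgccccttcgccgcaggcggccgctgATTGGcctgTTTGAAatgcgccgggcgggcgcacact
Kif15, chr9:122951011-122951110, plus strand: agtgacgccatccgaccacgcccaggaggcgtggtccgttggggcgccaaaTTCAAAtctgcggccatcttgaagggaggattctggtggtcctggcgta
Kif11, chr19:37376312-37376411, plus strand: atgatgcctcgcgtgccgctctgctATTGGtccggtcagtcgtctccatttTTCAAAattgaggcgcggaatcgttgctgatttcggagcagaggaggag
Kif18b, chr11:102925095-102925194, minus strand: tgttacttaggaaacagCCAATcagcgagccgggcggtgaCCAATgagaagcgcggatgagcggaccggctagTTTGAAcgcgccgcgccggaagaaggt
Kif22, chr7:127042391-127042490, minus strand: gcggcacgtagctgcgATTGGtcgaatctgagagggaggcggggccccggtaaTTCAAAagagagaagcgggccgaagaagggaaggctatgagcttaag
Kif4, chrX:100625995-100626094, plus strand: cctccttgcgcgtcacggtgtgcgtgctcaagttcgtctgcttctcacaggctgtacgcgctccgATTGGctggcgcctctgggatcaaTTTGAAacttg
Kif20b, chr19:34922288-34922387, plus strand: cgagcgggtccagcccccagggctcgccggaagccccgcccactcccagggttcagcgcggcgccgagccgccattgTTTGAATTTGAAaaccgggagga

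*Kif20b* has 2 copies of the CHR in direct succession, and *Kif11*, *Kif15* and *Kif22* have it on the opposite strand, upstream of the start site. *Kif14* and *Kif2c* have the motif further upstream, at -228 and -103 bases from the start site. *Kif18a* is the mitotic gene without it in this window, and no promoter sequence was at hand for *Kif20a*. The CCAAT box was less tied to role. It was found in 6 of 10 mitotic, 3 of 9 transport and 2 of 7 other kinesin genes, and in 37.4% of all promoters. No CHR overlapped a CCAAT box in the kinesin promoters. Promoters were missing for the transport genes *Kif5a*, *Kif5b* and *Kif13b* and for *Kif21b* and *Kif28*. The same window of *Kif3b* and *Kif1c*, which encode transport motors, is shown for contrast. It has a CCAAT box in *Kif3b* and neither motif in *Kif1c*.
Kif3b, chr2:153291346-153291445, plus strand: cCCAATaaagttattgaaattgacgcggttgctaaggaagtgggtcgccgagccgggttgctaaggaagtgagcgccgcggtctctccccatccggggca
Kif1c, chr11:70700478-70700577, plus strand: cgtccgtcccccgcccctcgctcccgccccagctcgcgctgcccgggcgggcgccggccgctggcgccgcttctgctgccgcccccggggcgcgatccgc

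**Figure D1:**
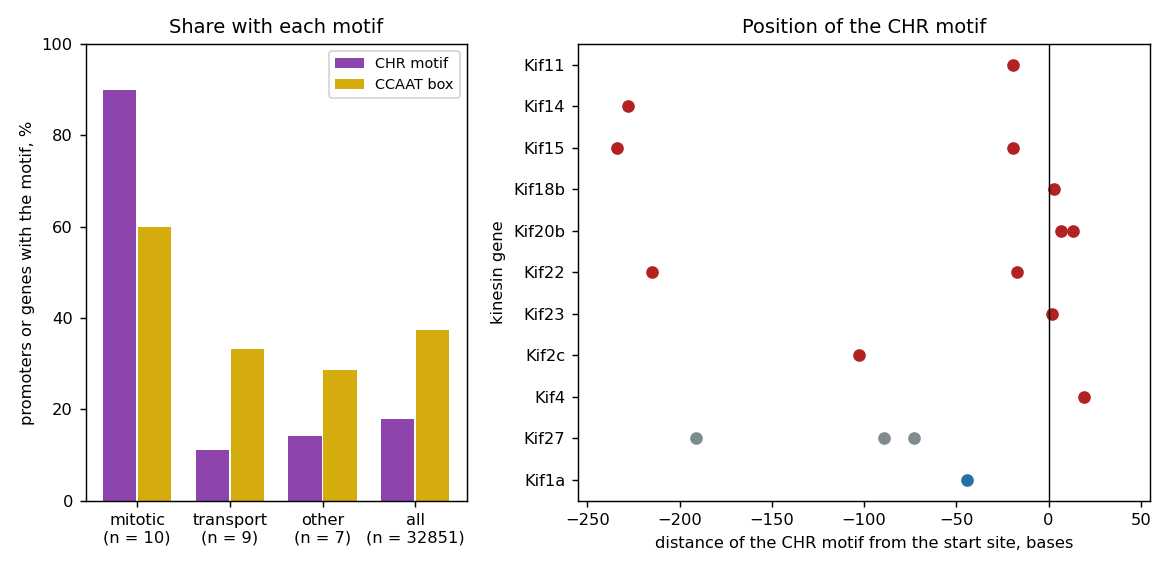
Left, share with the CHR motif or the CCAAT box, in percent, of the mitotic, transport and other kinesin genes (any promoter of a gene) and of all 32851 promoters (each promoter singly). Right, distance in bases of each CHR motif from the start site (0, vertical line), with mitotic genes in red, transport in blue and other in grey. The CHR is present in 9 of 10 mitotic genes, and 7 of them have a copy within 30 bases of the start site.

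Levels of the kinesin genes were compared per kilobase of annotated transcript, as normalised estimated counts added up over all tested transcripts of each gene. The mitotic kinesins spanned a narrower range, whereas the transport kinesins held both the highest and nearly the lowest genes. The 11 mitotic genes had a median of 635 counts per kilobase (131 to 1552) and the 12 transport genes a median of 258 (0.49 to 2852). The 9 other genes had a median of 25.7. A level of at least 400 was reached by 9 mitotic and 5 transport genes, and a level under 50 was found for 0 mitotic, 3 transport and 5 other genes. In the sum over all kinesin genes, the mitotic genes held 43.1%, the transport genes 44.1% and the others 12.8%. Members of a class are different genes and not replicates, and no test was made.

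*Kif1c*, a vesicle motor, was the highest of all kinesins with 2852 counts per kilobase, followed by *Kif5b*, the heavy chain of conventional kinesin, with 1662. *Kif20a*, which brings the chromosomal passenger complex to the central spindle, was the highest mitotic gene with 1552. *Kif3a* had 1491 and its partner in the ciliary kinesin-2 motor, *Kif3b*, had 566. These motors are known from many non-neuronal cells. At the other end lay transport and growth-regulating kinesins that are best known from neurons. *Kif5a* had 41.5 counts per kilobase, *Kif1a* 0.72, *Kif5c* 0.49 and *Kif21b* 0.48.

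The other mitotic genes followed in close order. *Kif2c*, the centromeric enzyme that takes microtubule ends apart, had 1004 counts per kilobase. The chromosome-arm motor *Kif22* had 836 and *Kif11*, which pushes the spindle poles apart, had 821. *Kif20b*, *Kif18b* and *Kif23* had 695, 635 and 605, and *Kif18a*, *Kif4* and *Kif15* had 479, 451 and 392. *Kif14*, a motor of cytokinesis, was the lowest mitotic gene with 131. The standard deviation of the leading transcript over all 4 libraries, which includes any difference between the groups, was 0.33 on the log2 scale for *Kif15* and 0.81 for *Kif23*, and it was 0.21 or less for the other 9 mitotic genes. Neighbours in the order of levels therefore lie within the spread of the libraries in some cases, such as *Kif22* and *Kif11* or *Kif18b* and *Kif23*.

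Of the remaining genes, the transport kinesins *Kif1b*, *Kif3c*, *Kif13a*, *Kif13b* and *Kif16b* had 490, 293, 223, 74.9 and 74.4 counts per kilobase. *Kif2a*, a depolymerase of both spindle poles and neurites, was the highest gene outside both classes with 1140, and *Kif21a*, which restrains microtubule growth, had 817. The ciliary genes *Kif7*, *Kif24*, *Kif9* and *Kif27* spanned 151, 104, 25.7 and 0.79. *Kif28* and *Kif26a* had 6.14 and 4.32.

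**Figure D2:**
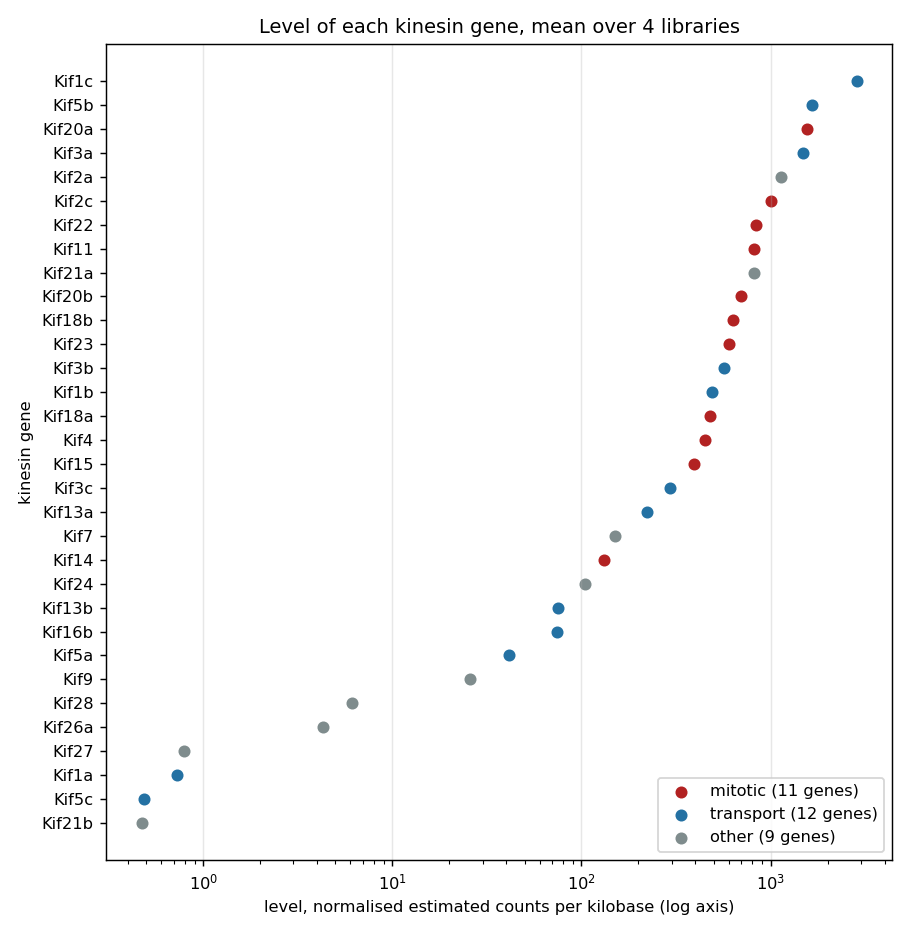
Level of each of the 32 kinesin genes in normalised estimated counts per kilobase (logarithmic axis), as the mean over 4 libraries, with mitotic genes in red, transport in blue and other in grey. Mitotic genes lie between 131 and 1552, whereas transport genes span 0.49 to 2852.

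Between KD and WT, 6 of 60 kinesin transcripts were called different (10%), beside 9.68% of all transcripts. By class these were 2 of 14 mitotic, 2 of 25 transport and 2 of 21 other transcripts. Among transcripts with at least 100 normalised estimated counts, 4 of 44 kinesin transcripts were called, beside 15.6% of all such transcripts (2943 of 18808). The libraries of KD and WT could not have overlapped, given the variances, for 35 of 60 kinesin transcripts, beside 54.8% of all transcripts. This was the case for 9 of 14 mitotic, 17 of 25 transport and 9 of 21 other transcripts. An unadjusted p under 0.05 was found for 17 kinesin transcripts, 4 of them mitotic, 8 transport and 5 other, beside 28.2% of all transcripts (9656 of 34200). The kinesins as a family thus gave shares near the background, or below it among the abundant transcripts, without a test of that difference.

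The size of the difference was small for most members. Its median was 0.26 for all kinesin transcripts, beside 0.35 for the whole table, and 0.20 beside 0.28 among those with at least 100 counts. In this abundant fraction it was 0.18 for the 13 mitotic, 0.24 for the 20 transport and 0.14 for the 11 other transcripts. The upper bound of the 95% confidence interval stayed under 0.5 for 9 of 13 mitotic, 10 of 20 transport and 3 of 11 other transcripts. For these 22 transcripts a difference of 0.5 or more lay outside the interval. Medians of sizes are never below 0 and include noise, and no test between the classes was made.

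**Figure D3:**
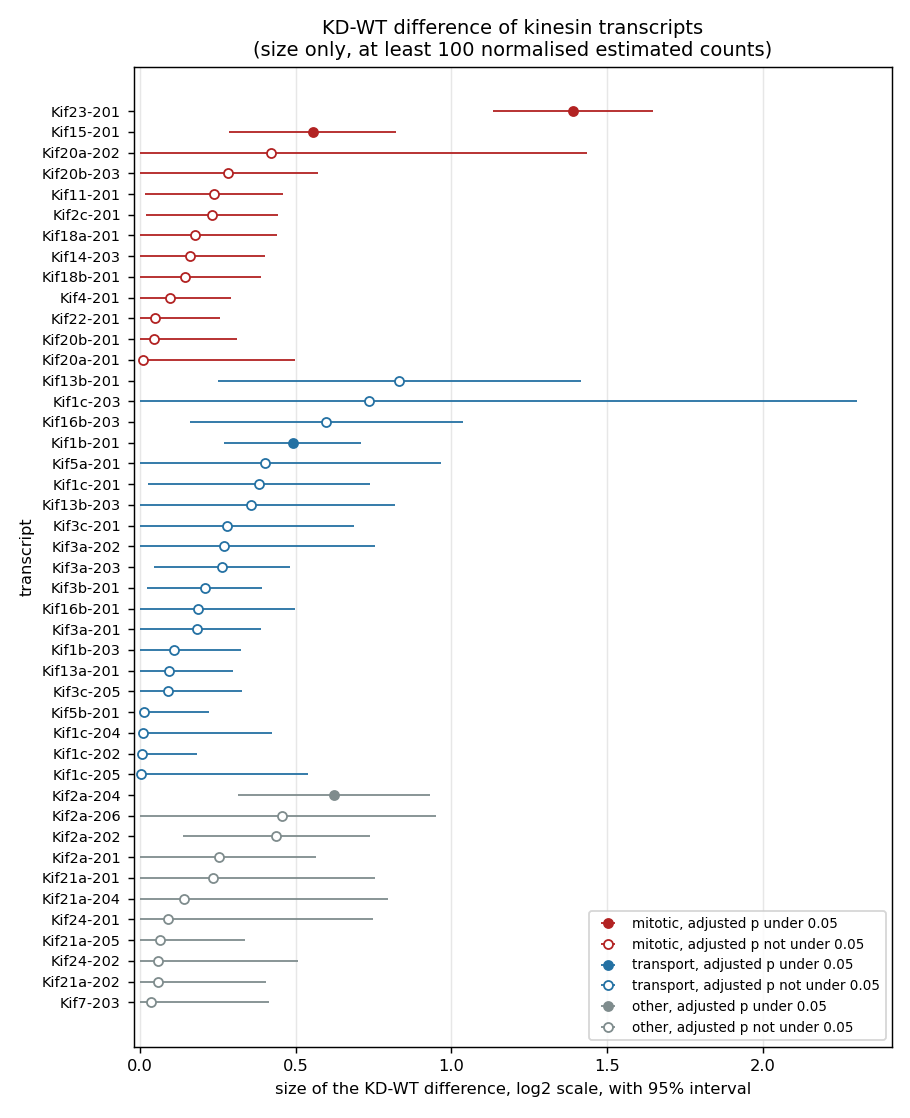
Size of the KD-WT difference on the log2 scale for the 44 kinesin transcripts with at least 100 normalised estimated counts, with 95% confidence intervals (lower ends limited to 0) and classes by colour. Filled circles mark an adjusted p under 0.05. *Kif23-201* at 1.39 stands apart from the rest, which lie at 0.83 or less.

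*Kif23* showed the largest difference of the abundant kinesins. It encodes the motor subunit of centralspindlin, the complex that bundles microtubules at the midzone and starts cytokinesis. Its single tested transcript (ENSMUST00000034815.8, chr9:61917280-61946774, minus strand, 23 exons) had group means of 3327 and 1269 normalised estimated counts. The size of the difference was 1.39 (SE 0.10, 95% confidence interval 1.13 to 1.65, adjusted p = 0.0160 by the moderated F test), a 2.62-fold distance between the groups. The standard deviation within the groups was 0.10, so that libraries of KD and WT did not overlap. By p-value the transcript ranked 105 in the whole table. *Kif23* and *Kif15*, the other mitotic gene with a call, both carry the CHR in the promoter windows shown above, and so do, in their promoters of 300 bases, 7 mitotic genes without a call.

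*Kif15* encodes a spindle motor that can take over part of the work of *Kif11*. Its transcript *Kif15-201* had group means of 2308 and 1572 counts, a size of 0.55 (SE 0.10, 95% confidence interval 0.29 to 0.82, adjusted p = 0.0432, moderated F test). *Kif11* itself had group means of 4296 and 3647 and a size of 0.24 that did not pass the test (adjusted p = 0.157). Its libraries did not overlap between the groups either, as the spread within them was 0.08. Among the mitotic transcripts with at least 100 counts, the largest size without a call belonged to *Kif20a-202*, with 0.42 and an interval from 0 to 1.43 (adjusted p = 0.530). In the second *Kif20a* transcript, *Kif20a-201*, the size was 0.01 with an upper bound of 0.50.

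Several mitotic kinesins gave tight bounds near 0. *Kif22* had group means of 1799 and 1737 and a size of 0.05 with an upper bound of 0.26. *Kif4*, which binds chromosome arms and the midzone, had 2326 and 2174, a size of 0.10 and an upper bound of 0.29. For *Kif20b-201* the size was 0.05 with an upper bound of 0.31. *Kif2c-201* (0.23, adjusted p = 0.149), *Kif18a-201* (0.18), *Kif14-203* (0.16), *Kif18b-201* (0.14) and *Kif20b-203* (0.28) also did not pass the moderated F test. *Kif2c-202*, at 52.7 counts, had a size of 0.68 with an interval from 0 to 1.84.

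**Figure D4:**
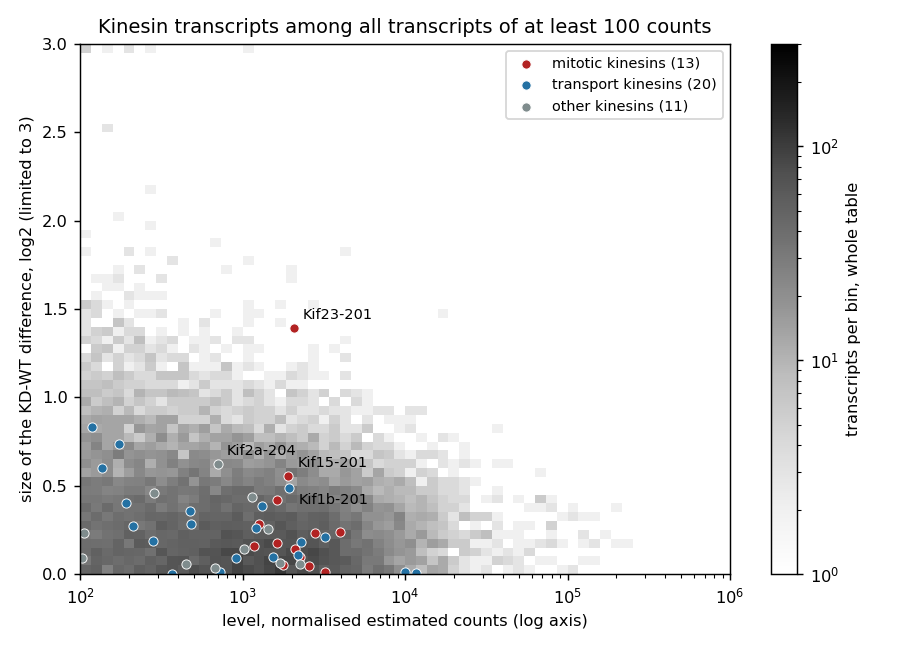
Size of the KD-WT difference (log2) against level in normalised estimated counts (logarithmic axis) for transcripts with at least 100 counts. Grey shading counts the transcripts of the whole table per bin, and coloured points are kinesins, those called being named. *Kif23-201* lies above the bulk of transcripts of its level, and most other kinesins lie in the dense band at the bottom.

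Among the transport kinesins, the abundant call was an isoform of *Kif1b*. This gene makes a short and a long motor with different tails, and the short form is known for moving mitochondria, the long form for moving precursors of synaptic vesicles. *Kif1b-201* (21 exons, coding length 3450 bases) had group means of 2290 and 1630 counts, a size of 0.49 (SE 0.08, 95% confidence interval 0.27 to 0.71, adjusted p = 0.0387, moderated F test). *Kif1b-203* (49 exons, coding length 5448 bases) had group means of 2272 and 2105 and a size of 0.11 with an upper bound of 0.32 (adjusted p = 0.443). The isoforms were similar in abundance, with 53.1% of the gene's counts in the long one. As sizes without direction, the 95% confidence intervals of the isoforms overlapped narrowly, since that of *Kif1b-203* ran from 0 to 0.32. Whether they overlap once directions are counted is not known, and overlap is not a test. From the sizes, the log2 ratio of the isoforms differed between KD and WT by 0.38 to 0.60, depending on their directions. This difference in the ratio was not tested. The isoforms part after an exon at chr4:149245338-149245410 (minus strand), which is exon 20 of 21 in the short and exon 22 of 49 in the long form. The short form goes on in its last exon at chr4:149233734-149238483 and the long form in an exon at chr4:149226263-149226356. The junctions are shown with the last 15 bases of the shared exon in lower case and the first 15 bases of the isoform's own exon in capitals.
Kif1b-201: gagcagcagagactgGACGCGGATTCTGAT
Kif1b-203: gagcagcagagactgGACTACGAGAGTAAA

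The other transport call, *Kif3c-204*, is a rare isoform with a mean of 3.93 counts. Its group means were 38.8 and 0, and the adjusted p was 0.0278 in the moderated F test. The technical standard deviation, which comes from resampling the reads, was 1.69 on the log2 scale and exceeded the spread of 0.91 within the groups. With the technical variance as a floor the adjusted p was 0.00614, and with a robust prior 0.0216. It was 0.106 with one prior variance for all transcripts and 0.180 with an ordinary F test. The floor also raised the calls in the whole table from 3312 to 4996, so that the lower p is not particular to this transcript. The abundant isoforms of the same gene were not called. *Kif3c-205*, with 65.4% of the gene's counts, had a size of 0.09 with an upper bound of 0.33, and *Kif3c-201* had 0.28.

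The most abundant transport transcripts gave narrow bounds near 0. *Kif1c-202*, with 82.0% of the counts of its gene, had group means of 11749 and 11689 and a size of 0.01 with an upper bound of 0.18. *Kif5b-201* had 10071 and 9982 and likewise a size of 0.01 with an upper bound of 0.22. Of the kinesin-2 motor, *Kif3a-201* had a size of 0.18 (adjusted p = 0.214), *Kif3a-203* of 0.26 (adjusted p = 0.125) and *Kif3b-201* of 0.21 (adjusted p = 0.143) in the moderated F test. *Kif13a-201*, which carries receptors from the Golgi, had a size of 0.09 with an upper bound of 0.30.

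Larger sizes without a call were found in less abundant transcripts, of the kinesin-3 family and of other families. *Kif13b-201* had group means of 159 and 88.8 counts and a size of 0.83 (95% confidence interval 0.25 to 1.42, adjusted p = 0.0888, moderated F test). *Kif16b-203*, from the gene of an early endosome motor, had 168 and 111 counts and a size of 0.60 (adjusted p = 0.0967). The main isoforms of both genes had smaller sizes, 0.36 for *Kif13b-203* and 0.19 for *Kif16b-201*. The minor isoforms *Kif1c-201*, *Kif1c-203*, *Kif1c-204* and *Kif1c-205* had sizes of 0.38, 0.73, 0.01 and 0.0028, none of them called. *Kif5a-201* and *Kif5a-202* had 0.40 and 1.00, and *Kif3a-202* had 0.27. *Kif5c-201*, *Kif1a-204* and *Kif3a-208* lay at 3.35 to 15.5 counts. Their sizes of 1.00, 0.04 and 3.80 had upper bounds from 2.13 to 9.21.

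The number of tested transcripts per gene differed among the kinesins. Of the mitotic genes, 8 of 11 had a single tested transcript, and of the transport genes 5 of 12. The technical variance exceeded the variance within the groups for 1 of 14 mitotic, 14 of 25 transport and 11 of 21 other transcripts, and for 42.9% of all transcripts. The count also rises where the variance within the groups is small, as for *Kif13a-201*, the single tested transcript of its gene, and no test between the classes was made.

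Outside both classes, *Kif2a* held the abundant call. *Kif2a-204* had group means of 870 and 564 counts and a size of 0.62 (SE 0.12, 95% confidence interval 0.32 to 0.93, adjusted p = 0.0450 by the moderated F test). The remaining *Kif2a* isoforms were not called, with sizes of 0.46 for *Kif2a-206* (adjusted p = 0.202, the largest of the group), 0.44 for *Kif2a-202* (adjusted p = 0.0848) and 0.25 for *Kif2a-201* (adjusted p = 0.250). *Kif2a-204* and *Kif2a-206* share a coding exon of 114 bases at chr13:106969704-106969817 (minus strand) that *Kif2a-201* and *Kif2a-202* lack. As sizes without direction, the intervals of all 4 isoforms overlapped. A difference between isoforms with and without the exon was not tested. From the sizes, the log2 ratio of *Kif2a-204* to *Kif2a-201* differed between KD and WT by 0.37 to 0.88, depending on their directions. For *Kif2a-206* and *Kif2a-202* it was 0.018 to 0.90. When transcripts of at least 100 counts were tested alone, and with the technical variance as a floor, *Kif2a-202* was called as well. The exon reads, 5′ to 3′ on the strand of the gene:
Kif2a: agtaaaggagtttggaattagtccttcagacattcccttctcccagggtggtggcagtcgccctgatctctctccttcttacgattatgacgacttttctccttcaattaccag

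*Kif9* encodes a kinesin of motile cilia, and its last transcript ends 7418 bases before the start of *Setd2*, on the same strand of chromosome 9. Its isoform *Kif9-203* was called at a mean of 2.21 counts, with group means of 14.2 and 0 (adjusted p = 0.0350, moderated F test). The technical standard deviation was 0.60, against 0.07 within the groups. The other isoforms *Kif9-201*, *Kif9-202* and *Kif9-204* lay at 16.6, 29.2 and 19.3 counts with sizes of 0.49, 0.31 and 0.20, none of them called. Transcripts of *Kif21a* (sizes 0.06 to 0.23), *Kif24* (0.06 and 0.09) and the main isoform of *Kif7* (0.04) also did not pass the test. *Kif7-201*, *Kif21b*, *Kif26a*, *Kif28* and both isoforms of *Kif27* lay under 100 counts. Their sizes of 0.12 to 3.83 were not called.

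The partners of the kinesins were examined on fixed lists. Of the mitotic partners, 6 of 43 transcripts were called (median size 0.28), and 6 of 41 with at least 100 counts, near the shares of 9.68% and 15.6% in the whole table. The largest was *Racgap1-201*, from the gene of the GTPase-activating subunit that joins *Kif23* in centralspindlin, with group means of 7463 and 3702 counts and a size of 1.01 (SE 0.07, adjusted p = 0.0160, moderated F test). A minor isoform, *Racgap1-213*, had a size of 0.86 that did not pass the test (adjusted p = 0.0901). A transcript of each subunit of centralspindlin was thus called, but whether their differences have the same direction is not known. *Aurka-203*, from the gene of a spindle pole kinase, followed with 0.70 (adjusted p = 0.0207). *Nusap1-202*, *Cep55-203*, *Ccnb2-201* and *Cdca8-202* had 0.56, 0.59, 0.53 and 0.45. No tested transcript of *Ect2* or *Prc1* on the same list was called.

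Of the light chains and adaptors that tie transport kinesins to their cargo, 5 of 49 transcripts were called (median size 0.30), or 5 of 38 with at least 100 counts, again near or below 9.68% and 15.6% of all. *Mapk8ip3-206* had 2.64 (adjusted p = 0.0160), but with a technical standard deviation of 2.08 against 0.23 within the groups, and the most abundant isoform *Mapk8ip3-208* had 0.03. *Plekhm2* links the lysosomal GTPase ARL8 to kinesin-1. Its isoform *Plekhm2-201*, at 680 counts, had 1.31 (adjusted p = 0.0201, moderated F test), whereas the more abundant *Plekhm2-202*, at 1417 counts, had 0.25 and was not called (adjusted p = 0.273). *Klc2-204*, *Fez1-201* and *Arl8a-201* had 0.73, 0.67 and 0.37.

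Of the kinesin superfamily genes outside the symbol rule, 1 of 9 transcripts was called (median size 0.16), a share near the 9.68% of all transcripts. This was *Cenpe*, the kinetochore motor that aligns chromosomes, with group means of 4522 and 3313 counts and a size of 0.45 (adjusted p = 0.0313, moderated F test). *Kifc1* and *Kifc5b* are near-identical copies whose reads may be split, and their sizes of 0.0015 and 0.25 are uncertain.

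Dynein and dynactin, the motor that walks the opposite way, had 4 of 53 transcripts called with a median size of 0.20, and 4 of 46 with at least 100 counts, both below the shares of 9.68% and 15.6% in the whole table. *Dynlt3* had 0.53 (adjusted p = 0.0457) and *Hook3* 0.45 (adjusted p = 0.0354), both by the moderated F test. *Dctn3* and *Actr1a* had 0.39 and 0.38. Of the proliferation markers, 3 of 21 transcripts were called with a median of 0.16. All 21 had at least 100 counts, where 15.6% of all transcripts were called. The 3 called were the replication helicase subunits *Mcm3* (1.04, adjusted p = 0.0165), *Mcm4* (0.41, adjusted p = 0.0407) and *Mcm2* (0.39). No tested transcript of the subunits *Mcm5*, *Mcm6* and *Mcm7* was called. *Mcm6-203* had 0.63 (adjusted p = 0.0521, moderated F test), *Mcm6-201* 0.34 and *Mcm7-201* 0.07. *E2f1-202* (0.78, adjusted p = 0.0567) and *Mki67* (0.35, adjusted p = 0.0528) did not pass the moderated F test. *Top2a* (0.08) and *Pcna* (0.06) were not called either. An unadjusted p under 0.05 in this test was found for 10 of the 21 transcripts, beside 28.2% of all transcripts. Whether a different share of dividing cells had a part in the *Kif23* and *Kif15* differences was not tested. In bulk RNA, fewer cells of a kind and less RNA per cell cannot be told apart.

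**Figure D5:**
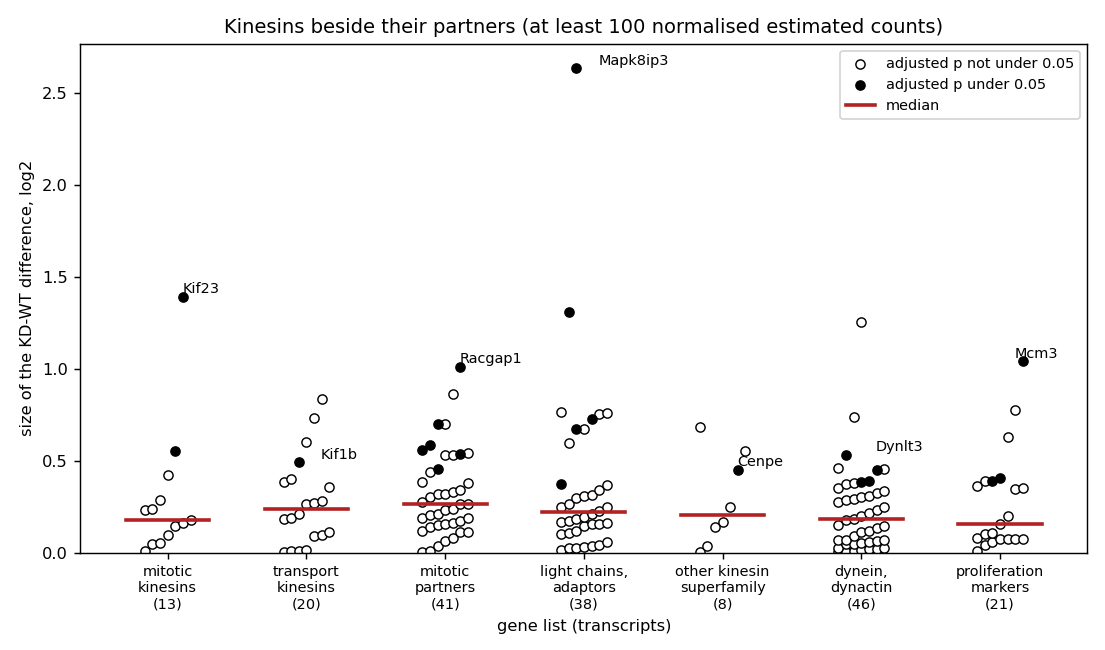
Size of the KD-WT difference (log2) of each transcript with at least 100 normalised estimated counts in the mitotic and transport kinesins and in 5 lists of related genes. Filled circles mark an adjusted p under 0.05, the red line is the median of a list, and the called transcript with the largest size in a list is named. *Kif23* at 1.39 and *Racgap1* at 1.01 lead the mitotic kinesins and their partners.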

How the data were processed

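The members and lists were chosen with earlier results of these data known. RNA-seq of 2 KD and 2 WT libraries was used, grouped by the labels. The authors estimated counts with Kallisto and modelled them in Sleuth. The deposited means are on the natural log scale (normalised estimated count plus 0.5, over 4 libraries). Other deposited columns used hold variances over libraries, over resampled reads and within groups. The transcript table also holds the authors' effects, test statistics, p-values and q-values, and the gene table their combined p-values. None of these were used.

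The between-group sum of squares was 3 times the total variance minus 2 times the within-group variance, and its square root is the size of the difference. The within-group variance (2 degrees of freedom) was moderated with a trend on the mean (squeezeVar, limma 3.58.1, R 4.3.3, median prior 2.66 degrees of freedom), with Benjamini-Hochberg adjustment over all transcripts. The procedure was tested on simulated data.

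GENCODE M21 gave positions and lengths (98.6% of transcripts matched with the same version). All called kinesins were named, as were, for each class, the gene with the highest level and the largest size without a call at 100 counts or more, the main isoforms, and in each list the largest called transcripts. Further transcripts were named after their values were seen. Alternatives were other variance moderation, a count minimum of 100, the technical variance as a floor, a threshold of 0.01, wider classes and other scales of level.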

Additional observations from a re-analysis of the deposited data

How the results depend on the processing

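With one prior variance for all transcripts, 127 transcripts of the table were called and 1 kinesin transcript, *Kif9-203*, with 0 mitotic and 0 transport ones. *Setd2-201* itself had an adjusted p of 0.0537 in that setting (moderated F test) and of 0.103 with an ordinary F test. With an ordinary F test, 10 transcripts were called and 0 kinesins, and at an adjusted p under 0.01 (limma's moderated F test) 0 were called in the whole table, in the kinesins and in both classes, whereas 9656 transcripts, 17 of them kinesins, had an unadjusted p under 0.05. With the technical variance as a floor, 4996 transcripts and 8 kinesins were called. Tested alone, transcripts of at least 100 counts gave 4965 calls of 18808, of them 5 of 44 kinesins (1 transport), and a robust prior gave 3843 calls and 5 kinesins. *Kif23-201*, *Kif15-201*, *Kif1b-201* and *Kif2a-204* had an adjusted p under 0.05 in these last 3 settings, *Kif3c-204* (0.0216 and 0.00614) did in the robust and floor settings, and *Kif9-203* did not in these settings (0.0511 and 0.0696). Over the alternatives that change the test, the adjusted p ranged from 8.02e-08 to 0.136 for *Kif23-201* and from 0.00454 to 0.214 for *Kif15-201*. Wider classes gave 3 calls each. Without division by length, the median levels were 2112 counts (mitotic) and 1466 (transport), and with the highest transcript per gene the transport median was 217.2 per kilobase. No paired analysis was possible because values of single libraries were not used, and leaving out replicates was not run for the same reason.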
